A study of Mus musculus with 3 samples.

Results

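The kainate receptor subunit genes Grik1, Grik2, Grik3, Grik4 and Grik5, the auxiliary subunit genes Neto1 and Neto2, the synaptic adhesion gene Elfn1 and the metabotropic glutamate receptor gene Grm5 were measured in single neurons of the somatostatin (Sst) lineage of the mouse neocortex. These 9 of the 31053 genes in the files were chosen by name, and all 9 had UMIs in all 3 libraries. The animals were Sst-Cre; RCEloxP mice (SstCre/+;RCEfl/+), in which Cre made from the Sst locus switches on GFP for the rest of a cell's life, so that sorted cells need not still hold Sst mRNA. Tissue was pooled from 6 animals at E16.5, from 3 at P1 and from 3 at P5. DAPI-negative GFP+ cells of each pool were collected by FACS and made into 1 droplet library per stage. No treatment and no second genotype was compared. With 1 library per stage there are no replicates, stage and library cannot be told apart, and no test was made.

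The libraries held 25638779 unique molecular identifiers (UMIs, each marking 1 captured mRNA molecule) over 4478 barcodes for E16.5, 15654107 over 4440 for P1 and 13429055 over 3406 for P5. Cells with more than 700 genes and less than 10% of their UMIs from mitochondrial genes were kept, which left 3952, 2501 and 2980 cells with a median of 5577, 3293 and 3935.5 UMIs. The share of cells kept was 56.3% at P1, against 88.3% at E16.5 and 87.5% at P5. The E16.5 and P1 libraries shared 3 cell barcodes, E16.5 and P5 shared 1, and P1 and P5 shared 6, of which 2, 1 and 1 were kept cells in both.

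Kainate receptors are glutamate-gated cation channels that act at postsynaptic sites, along axons and at presynaptic terminals. GluK1, GluK2 and GluK3 (encoded by Grik1, Grik2 and Grik3) can form channels on their own, whereas GluK4 and GluK5 (Grik4 and Grik5) bind glutamate with high affinity and need one of the former as a partner, and Neto1 and Neto2 are transmembrane proteins that slow the gating of these channels. Elfn1 is a postsynaptic leucine-rich repeat protein of Sst interneurons that binds presynaptic metabotropic receptors across the synapse, and mGluR5 (Grm5) is a group I receptor that couples through Gq to phospholipase C.

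Each gene was read in 3 cell classes, each set by UMI counts of other genes. The Nos1 class (at least 1 Nos1 UMI, nitric oxide synthase being the mark of Sst long-range projection neurons, LRP) held 67, 434 and 547 cells at E16.5, P1 and P5. The Sst-high class (at least 5 Sst UMIs and no Nos1 UMI) held 1920, 757 and 896 cells. The Lhx6 Sst-negative class (at least 1 UMI of Lhx6, a transcription factor of interneurons born in the medial ganglionic eminence, and 0 Sst UMIs) held 776, 491 and 559 cells. Of these, 2, 26 and 14 were also Nos1 cells. The other 1191, 845 and 992 kept cells were in no class. A class made from such a count is a range and not a type: 38, 126 and 81 Nos1 cells had exactly 1 Nos1 UMI, and 218, 124 and 203 Sst-high cells had 5 or 6 Sst UMIs. Levels are given in CPM, the UMIs of a gene summed over a class in a library and scaled so that each class has the same total, with the exact 95% Poisson interval in brackets. Shares of cells carry exact 95% Clopper-Pearson intervals. Both kinds of interval cover counting error only.

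Marker genes were read first, as a check of the class names. The LRP list (Nos1, Chodl, Npy, Pou3f2, Ptn, Sfrp1, Cygb, Tacr1 and Col25a1) was detected with 9 of 9 genes in the Nos1 class of each library and summed to 14128, 30123 and 42089 CPM at E16.5, P1 and P5, with the neuropeptide gene Npy most abundant (12366, 24679 and 34619 CPM). Nos1 itself, detected there by the class rule and so no check, held 269, 1972 and 2726 CPM of these sums. In the Sst-high class the same list summed to 2795, 2659.6 and 1724 CPM, and Nos1 was at 0 by the class rule. Chodl, which marks LRP neurons, had a UMI in 15 of 67, 224 of 434 and 328 of 547 Nos1 cells. It also had a UMI in 81 of 1920, 56 of 757 and 31 of 896 Sst-high cells. At E16.5 those 81 were most of the 102 kept cells with a Chodl UMI. The E16.5 ratios of Nos1 over Sst-high cells therefore do not compare LRP neurons with cells free of LRP markers. The Martinotti cell list (Reln, Nr2f2, Myh8, Cbln4, Npas1, Pdyn, Calb2, Chrna2 and Etv1) summed to 504, 802 and 1216 CPM in the Sst-high class and to 299, 301 and 566 CPM in the Lhx6 Sst-negative class. Its most abundant gene in the Sst-high class was Nr2f2 at E16.5 (164 CPM) and Reln at P1 and P5 (430.0 and 581 CPM), and Chrna2 was at 0 at E16.5. The non-Martinotti list (Tac1, Erbb4, Mef2c, Crh, Nts, Th and Thsd7a), led by Mef2c in all 9 class-by-library values, was highest in the Lhx6 Sst-negative class at 2254, 5120.2 and 3960.3 CPM, against 1002, 1581 and 1016 CPM in the Sst-high class. In the Lhx6 Sst-negative class 4, 5 and 6 of its 7 genes were detected, with Crh, Nts and Th at 0 at E16.5, Crh and Th at P1 and Nts at P5.

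The E16.5 Nos1 class departed from its name. The markers of a list for excitatory neurons were all detected there and summed to 754 CPM, led by Neurod6 (303 CPM), against 7.99 CPM in Sst-high cells, and 14 of its 67 cells held 3 or more such UMIs. In Nos1 cells at P1 the list summed to 181 CPM, against 7.40 CPM in Sst-high cells, and 16 of 434 cells held 3 or more such UMIs. The P1 Nos1 class was thus also mixed, to a smaller extent. At P5 the list summed to 7.13 CPM in Nos1 cells. The E16.5 class is therefore called Nos1 cells and not LRP neurons. The Meis2 type list (4 genes, led by Meis2) also summed to 178 CPM in E16.5 Nos1 cells, above the 119 CPM of the Martinotti list there. For other cells that a sort could carry along, the highest sums in any class and library were 19.03 CPM for interneurons of the caudal ganglionic eminence (5 genes, led by Htr3a, with Vip at 0, in E16.5 Sst-high cells), 13.5 CPM for astrocytes and progenitors (Aldh1l1, Aqp4, Hes5 and Top2a at 0), 3.55 CPM for endothelium (Cldn5 and Flt1 at 0), 3.42 CPM for microglia (Cx3cr1, C1qa and C1qb at 0), 2.22 CPM for erythroid cells and 0.509 CPM for the oligodendrocyte lineage (Olig1 and Olig2 at 0).

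Grik1 (ENSMUSG00000022935, chr16:87895900-88290265, minus strand, GRCm38), which encodes GluK1, was higher in Sst-high cells than in Lhx6 Sst-negative cells in every library. Its level in Sst-high cells was 119.9 (114 to 126) CPM at E16.5 against 346 (329 to 363) at P1 and 237 (224 to 251) at P5. Nos1 cells held 97.6 (74.1 to 126) CPM at E16.5 against 245 (224 to 268) at P1 and 165 (147 to 183) at P5, and Lhx6 Sst-negative cells 67.2 (59.2 to 75.9) CPM at E16.5 against 168 (149.51 to 189) at P1 and 127 (112 to 144) at P5. All 3 classes were highest at P1, and at P1 and P5 the Nos1 class lay between the others with no overlap of intervals. At E16.5 the intervals of Nos1 and Sst-high cells overlapped. The log2 ratio of Lhx6 Sst-negative over Sst-high cells, taken after 1 CPM was added to both levels and with the exact conditional binomial interval of the plain ratio, was -0.83 (-1.03 to -0.65) at E16.5 against -1.04 (-1.23 to -0.86) at P1 and -0.89 (-1.10 to -0.70) at P5. From the highest to the lowest of the 9 values, Grik1 spanned 5.15-fold.

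Grik2 (ENSMUSG00000056073, chr10:49094833-49788766, minus strand), the gene of GluK2, differed by less than 2-fold between classes within each stage and peaked at P1. Sst-high cells had 109 (104 to 115) CPM at E16.5 against 214 (201 to 228) at P1 and 113 (104 to 123) at P5. In Nos1 cells the values were 89.2 (66.8 to 117) CPM at E16.5 against 239 (218 to 261) at P1 and 129.9 (114 to 147) at P5, and in Lhx6 Sst-negative cells 78.2 (69.6 to 87.6) CPM at E16.5 against 162 (144 to 182) at P1 and 114 (99.8 to 130.1) at P5. The 3 highest of the 9 values were those of P1, where the Nos1 and Sst-high intervals overlapped. Lhx6 Sst-negative cells lay below Sst-high cells with intervals apart at E16.5 and P1. The log2 ratios were -0.48 (-0.67 to -0.30) and -0.40 (-0.60 to -0.21). At P5 the intervals of all 3 classes overlapped, and no class ratio of Grik2 reached 2-fold at any stage. The P1 over E16.5 log2 ratio was 1.41 (1.01 to 1.86) in Nos1 cells, 0.96 (0.85 to 1.08) in Sst-high cells and 1.04 (0.81 to 1.29) in Lhx6 Sst-negative cells.

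Grik3 (ENSMUSG00000001985, chr4:125490700-125714173, plus strand), the gene of GluK3, was lower in Nos1 cells than in Sst-high cells. Sst-high cells held 69.8 (65.5 to 74.2) CPM at E16.5 against 177 (165 to 189.7) at P1 and 109.8 (101 to 119) at P5, Nos1 cells 43.8 (28.6 to 64.1) CPM at E16.5 against 83.3 (71.0 to 97.0) at P1 and 52.0 (42.4 to 63.1) at P5, and Lhx6 Sst-negative cells 68.8 (60.7 to 77.6) CPM at E16.5 against 126 (110.0 to 144) at P1 and 74.3 (62.7 to 87.3) at P5. The log2 ratio of Nos1 over Sst-high cells was -0.66 (-1.29 to -0.11) at E16.5 against -1.08 (-1.34 to -0.85) at P1 and -1.07 (-1.40 to -0.77) at P5, so that Grik3 passed 2-fold at P1 and P5. With over 1000 genes and under 5% mitochondrial UMIs the P5 ratio was -0.98, short of 2-fold. At E16.5 the Sst-high and Lhx6 Sst-negative intervals overlapped, and they were apart at P1 and P5. Like Grik1 and Grik2, Grik3 was highest at P1 in each class.

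Grik4 (ENSMUSG00000032017, chr9:42518135-42944493, minus strand), which encodes the high-affinity subunit GluK4, had the widest span of the 9 genes (126-fold between the highest value and the lowest, which rests on 4 UMIs) and was highest in Nos1 cells. In that class it had 11.8 (4.74 to 24.3) CPM at E16.5 against 133 (117 to 149.61) at P1 and 47.4 (38.2 to 58.0) at P5, from 7, 261 and 93 UMIs. Sst-high cells held 3.19 (2.34 to 4.26) CPM at E16.5 against 18.5 (14.8 to 22.9) at P1 and 3.22 (1.84 to 5.23) at P5, and Lhx6 Sst-negative cells 1.05 (0.286 to 2.69) CPM at E16.5 against 4.03 (1.62 to 8.31) at P1 and 2.53 (0.820 to 5.89) at P5. The Nos1 values of P1 and P5 stood apart from each other and from every other value, while the E16.5 Nos1 interval overlapped that of P1 Sst-high cells. On the log2 scale Nos1 over Sst-high was 2.78 (2.48 to 3.21) at P1 and 3.52 (3.103 to 4.74) at P5. At E16.5 it was 1.61 (0.49 to 3.04), on 7 Nos1 UMIs, and Grik4 missed the low-value filter described with the counts of genes. The E16.5 cells with at least 2 Nos1 UMIs gave 2.47 for the same ratio. The 8 E16.5 cells with 5 or more Nos1 UMIs had 0 Grik4 UMIs, which allows up to 33.4 CPM, so no direction can be read from them. The study named Grik4 as an LRP gene from these libraries, so its height in Nos1 cells is not independent evidence.

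A Grik4 UMI was found in 37.3% (32.8 to 42.1%) of Nos1 cells, 7.79% (5.99 to 9.94%) of Sst-high cells and 1.22% (0.450 to 2.64%) of Lhx6 Sst-negative cells at P1. Droplets also pick up free RNA, so the share was read in cells with excitatory neuron markers (at least 5 UMIs of that list and at most 1 of Gad1 and Gad2, 39, 32 and 22 cells in the 3 libraries). There it was 25.0% (11.5 to 43.4%) at P1, with a median of 6045.5 UMIs per cell against 3704.5 in Nos1 cells, and 10 of these 32 cells also had a Nos1 UMI. When each cell was thinned to 2000 UMIs the P1 shares became 24.1% in Nos1 cells, 3.84% in Sst-high cells, 0.438% in Lhx6 Sst-negative cells and 8.203% in excitatory marker cells. Thinning left out 78, 154, 109 and 1 shallower cells of the 4 groups. At P5 the unthinned Grik4 share was 15.2% (12.3 to 18.5%) in Nos1 cells and 0 of 22 in excitatory marker cells, where 0 allows a share of up to 15.4%.

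Grik5 (ENSMUSG00000003378, chr7:25009849-25072346, minus strand), the gene of GluK5, varied least, with a span of 2.37-fold. Sst-high cells had 70.9 (66.6 to 75.4) CPM at E16.5 against 111 (102 to 121) at P1 and 109.6 (101 to 119) at P5. Nos1 cells held 47.1 (31.3 to 68.1) CPM at E16.5 against 109 (95.1 to 125) at P1 and 92.7 (79.7 to 107) at P5, and Lhx6 Sst-negative cells 77.4 (68.8 to 86.8) CPM at E16.5 against 107 (91.8 to 123) at P1 and 112 (97.4 to 127) at P5. In the order of the 9 values each interval overlapped the next, and the 3 lowest values were those of E16.5. No class ratio of Grik5 passed 2-fold, and in Nos1 cells the P1 over E16.5 log2 ratio was 1.19 (0.64 to 1.84).

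Neto1 (ENSMUSG00000050321, on the plus strand of chromosome 18), an auxiliary subunit gene, reached 220.0 (212 to 228) CPM at E16.5 against 434 (415 to 453) at P1 and 630.1 (608 to 653) at P5 in Sst-high cells. Its level was 105 (94.7 to 116) CPM at E16.5 against 235 (212 to 258) at P1 and 295 (272 to 320.0) at P5 in Lhx6 Sst-negative cells and 42.1 (27.2 to 62.1) CPM at E16.5 against 163 (146 to 182) at P1 and 175 (157 to 195) at P5 in Nos1 cells. Within each library the classes kept this order with no overlap of intervals, and within the Sst-high class and the Lhx6 Sst-negative class the intervals of successive stages were also apart. In Nos1 cells the P1 and P5 intervals overlapped. The log2 ratio of Nos1 over Sst-high cells was -2.36 (-3.02 to -1.82) at E16.5 against -1.40 (-1.58 to -1.24) at P1 and -1.84 (-2.01 to -1.69) at P5. For Lhx6 Sst-negative over Sst-high cells it was -1.06 (-1.22 to -0.92) at E16.5 against -0.89 (-1.05 to -0.73) at P1 and -1.09 (-1.22 to -0.97) at P5.

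Neto2 (ENSMUSG00000036902, chr8:85636588-85700924, minus strand), the other auxiliary subunit gene, rose with stage in Sst-high cells, where it had 229.9 (222 to 238) CPM at E16.5 against 406 (388 to 425) at P1 and 504 (485 to 525) at P5. Lhx6 Sst-negative cells held 138 (126 to 150.10) CPM at E16.5 against 260.4 (237 to 286) at P1 and 256 (234 to 279) at P5, and Nos1 cells 129.6 (102 to 162) CPM at E16.5 against 189 (171 to 209.6) at P1 and 129 (113 to 146) at P5. The P5 Nos1 value was the lowest of all 9, next to the E16.5 Nos1 value with an overlapping interval. The Nos1 over Sst-high log2 ratio went from -0.82 (-1.17 to -0.50) at E16.5 through -1.10 (-1.26 to -0.94) at P1 to -1.96 (-2.16 to -1.78) at P5. In the excitatory marker cells Neto2 stood at 124 (94.5 to 159) CPM at E16.5 against 229 (169.6 to 303) at P1 and 171 (98.0 to 278) at P5. Sst was at 72.2 (50.3 to 100.5) CPM at E16.5 against 32.7 (13.2 to 67.5) at P1 and 42.9 (11.7 to 109.8) at P5 in these cells, and the part of free RNA in either gene was not tested. Neto1 in the same cells was at 6.19 (1.28 to 18.1) CPM at E16.5 against 18.7 (5.10 to 47.9) at P1 and 150.04 (82.0 to 252) at P5.

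Elfn1 (ENSMUSG00000048988, chr5:139907943-139974722, plus strand) had the same order of classes as Neto1. Sst-high cells held 201 (194 to 209) CPM at E16.5 against 325 (308 to 342) at P1 and 384 (367 to 402) at P5. In Lhx6 Sst-negative cells Elfn1 had 98.2 (88.5 to 109) CPM at E16.5 against 122 (106 to 139.8) at P1 and 162 (145 to 181) at P5, and in Nos1 cells 58.9 (41.0 to 81.9) CPM at E16.5 against 111 (96.5 to 126) at P1 and 115 (101 to 131) at P5. The 3 highest of the 9 values were those of Sst-high cells, each apart from the next, whereas P1 Lhx6 Sst-negative, P5 Nos1 and P1 Nos1 cells overlapped in a row. Its log2 ratio was past 2-fold in all 6 class ratios, with Nos1 over Sst-high at -1.76 (-2.30 to -1.29) at E16.5 against -1.54 (-1.76 to -1.35) at P1 and -1.73 (-1.94 to -1.54) at P5 and Lhx6 Sst-negative over Sst-high at -1.03 (-1.20 to -0.88) at E16.5 against -1.40 (-1.62 to -1.20) at P1 and -1.24 (-1.42 to -1.07) at P5. The study listed both Elfn1 and Neto1 as Martinotti genes from these libraries, and this height in Sst-high cells is not independent of that list.

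A UMI of Elfn1 was present in 72.2% (69.2 to 75.1%) of Sst-high cells at P5 (median of 5542.5 UMIs per cell), 31.1% (27.3 to 35.1%) of Lhx6 Sst-negative cells (3316) and 24.7% (21.1 to 28.5%) of Nos1 cells (3073). Excitatory marker cells had it in 0 of 22 cells at P5 (median of 4154 UMIs), which allows up to 15.4%. At E16.5 and P1 they had it in 5.13% (0.627 to 17.3%) and 12.5% (3.51 to 29.0%). With cells thinned to 2000 UMIs the P5 shares were 49.2% in Sst-high, 23.9% in Lhx6 Sst-negative and 17.0% in Nos1 cells, after 110, 112 and 133 shallower cells were left out. For Neto1 the unthinned P5 shares were 85.8% (83.4 to 88.0%), 46.9% (42.7 to 51.1%) and 35.1% (31.1 to 39.3%) in the same classes, against 36.4% (17.2 to 59.3%) in excitatory marker cells. Thinned, Neto1 had 66.5%, 37.5%, 25.4% and 18.0%, the last over the 19 of 22 cells that were deep enough.

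Grm5 (ENSMUSG00000049583, chr7:87584168-88134907, plus strand) had the reverse order of the Sst-positive and Sst-negative classes. Lhx6 Sst-negative cells held 482 (461 to 505) CPM at E16.5 against 811 (769 to 854) at P1 and 687 (651 to 724) at P5, Sst-high cells 391 (381 to 402) CPM at E16.5 against 557 (536 to 579) at P1 and 440.2 (422 to 459) at P5, and Nos1 cells 219 (183 to 259.8) CPM at E16.5 against 271 (248 to 295) at P1 and 176 (158 to 196) at P5. The 6 values of the first 2 classes were each apart from the next in order, and the 3 Nos1 values were the lowest and overlapped in order. Lhx6 Sst-negative over Sst-high was 0.30 (0.23 to 0.38) at E16.5 against 0.54 (0.45 to 0.64) at P1 and 0.64 (0.54 to 0.74) at P5 on the log2 scale, below 2-fold each time. Nos1 over Sst-high was -0.84 (-1.10 to -0.59) at E16.5 against -1.04 (-1.18 to -0.91) at P1 and -1.32 (-1.49 to -1.16) at P5. The study placed Grm5 among non-Martinotti genes from these libraries, so its height in Sst-negative cells, whose Mef2c was highest too, is not independent evidence. Excitatory marker cells held 128 (98.1 to 164) CPM at E16.5 against 407 (326 to 502) at P1 and 750.2 (585 to 948) at P5 of Grm5, so its UMIs in any class could also include free RNA, whose part was not tested. With cells thinned to 2000 UMIs, a Grm5 UMI was found at P5 in 70.9% of Lhx6 Sst-negative cells, 57.5% of Sst-high cells and 24.1% of Nos1 cells (unthinned 81.9%, 83.9% and 31.4%), and in 75.6% of excitatory marker cells (unthinned 90.9%).

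**Figure D1:**
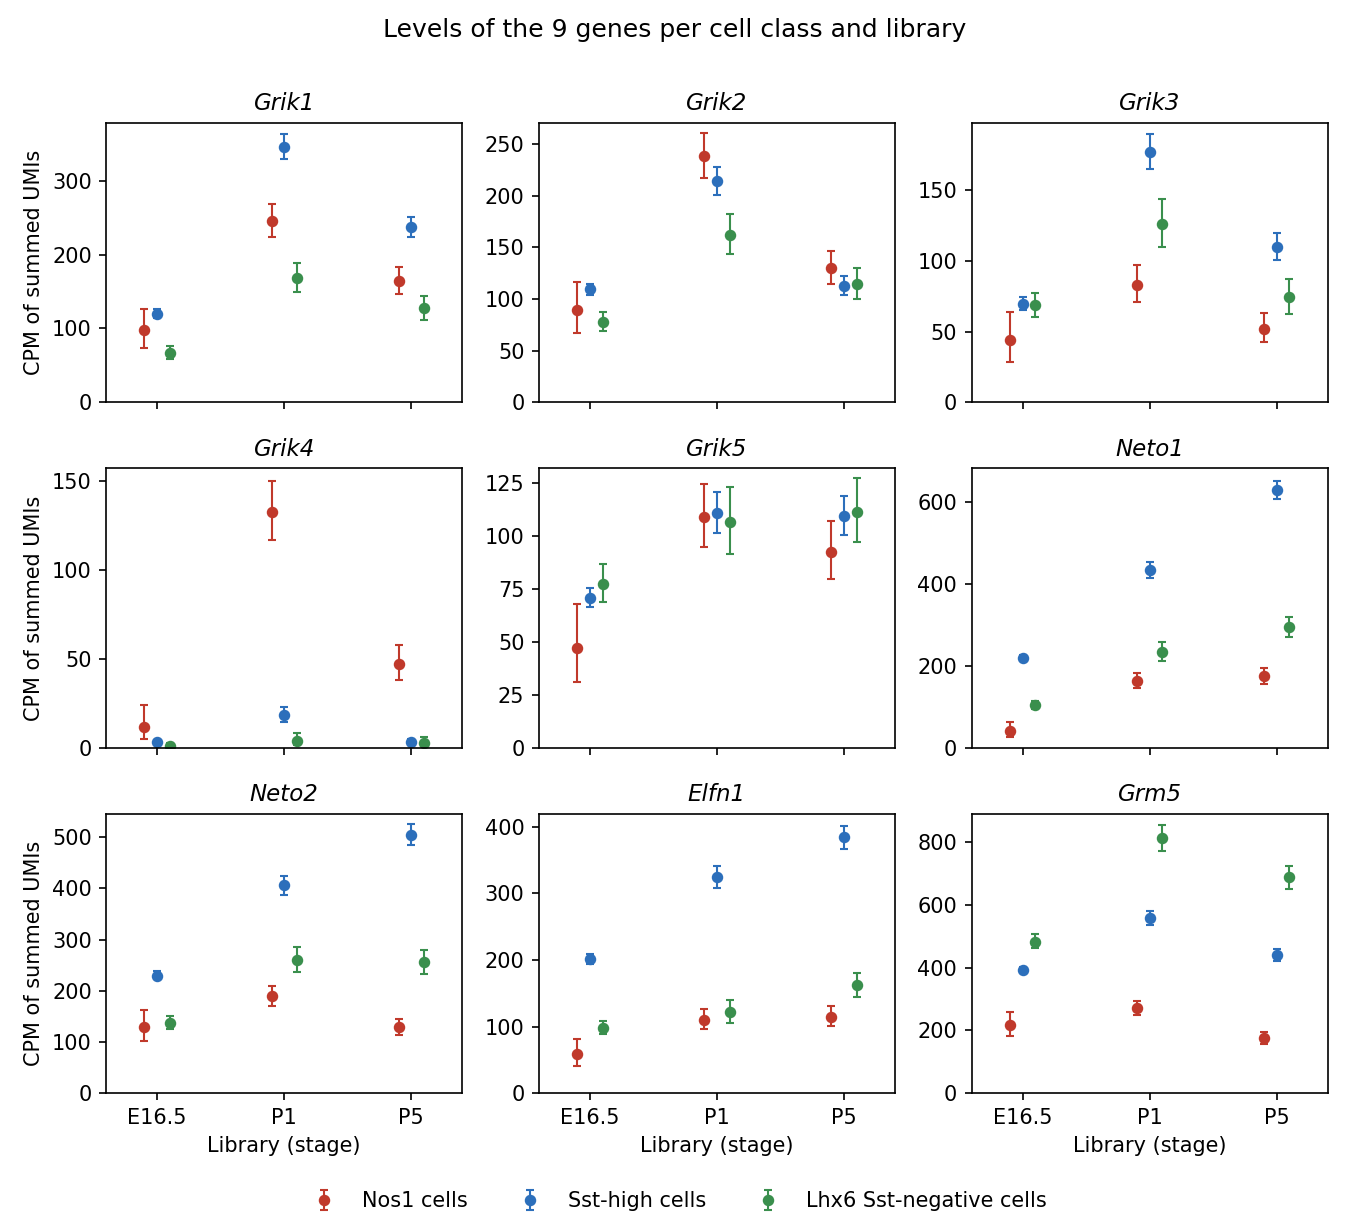
Levels of the 9 genes, in CPM of summed UMIs on the vertical axes (each from 0), at E16.5, P1 and P5 in Nos1 cells, Sst-high cells and Lhx6 Sst-negative cells. Points are the value of a class in a library, bars are exact 95% Poisson intervals, and the postnatal Grik4 points of Nos1 cells, at 133 CPM at P1 and 47.4 CPM at P5, lie above those of the other classes, while Neto1, Neto2 and Elfn1 are highest in Sst-high cells and Grm5 in Lhx6 Sst-negative cells.

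To set the 9 genes beside the rest of the transcriptome, a gene entered a comparison when the mean of its levels in the groups compared was at least 10 CPM and at least 10 UMIs were counted in them together, and it was counted when it differed by 2-fold or more. In Nos1 over Sst-high cells at E16.5, 8 of the 9 genes entered (Grik4 did not), 0 were higher and 2 were lower (Neto1 and Elfn1), where 3.73% of 8829 genes were higher and 2.11% lower. At P1 all 9 entered, 1 was higher (Grik4) and 5 were lower (Grik3, Neto1, Neto2, Elfn1 and Grm5), beside 2.23% and 2.06% of 9269 genes. Grm5 fell short of 2-fold there, at -0.99, when only cells with at least 2000 UMIs were used. At P5 the count was again 1 higher (Grik4) and 5 lower (the same 5 names), beside 3.13% and 4.03% of 8861 genes. Grik3 fell short of 2-fold at P5, at -0.98, with over 1000 genes and under 5% mitochondrial UMIs. Grik4 entered at P5 only through its level in Nos1 cells, so its place in this count depends on the filter. The median log2 ratio of the genes that entered was -0.74, -1.04 and -1.07 at the 3 stages, against 0.00, -0.01 and -0.06 over all genes that entered. These are descriptions of a list picked by name, and nothing is read from them about the list as a whole. With only the cells of at least 2 Nos1 UMIs, 4 of the genes passed 2-fold at E16.5 in place of 2.

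Lhx6 Sst-negative over Sst-high cells gave the same count at E16.5 and smaller counts at P1 and P5. At E16.5, 8 of the 9 genes entered (without Grik4), with 0 higher and 2 lower (Neto1 and Elfn1), beside 0.860% of 8720 genes higher and 2.41% lower. At P1 all 9 entered, with 0 higher and 3 lower (Grik1, Grik4 and Elfn1), beside 1.36% and 4.42% of 9169 genes. Grik4 entered at P1 only through its level in Sst-high cells, so its place in this count depends on the filter. At P5, 8 entered (without Grik4), with 0 higher and 2 lower (Neto1 and Elfn1), beside 1.80% and 2.03% of 8901 genes. Median log2 ratios were -0.61, -0.64 and -0.72 for the genes that entered, and 0.04, 0.01 and 0.02 over all genes. Neto1 and Elfn1 lay near the 2-fold line at E16.5, and both fell short of it when the mean of single-cell CPM was used or when at least 2 Lhx6 UMIs were asked for, which took the count from 2 to 0. At P1 the count fell from 3 to 1 when Sst-high cells had to hold an Lhx6 UMI, with Grik1 at -0.97. Grik4 also left this count, by the low-value filter, since its ratio lay between -3.11 and -1.38 under all alternatives. At P5 the count rose from 2 to 4 with the mean of single-cell CPM.

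Between the E16.5 and P5 libraries Neto1 was more than 2-fold higher in all 3 classes, with log2 ratios of 2.03 (1.47 to 2.71) in Nos1, 1.51 (1.45 to 1.59) in Sst-high and 1.49 (1.31 to 1.68) in Lhx6 Sst-negative cells. In Nos1 cells all 9 genes entered and 2 were higher at P5 (Neto1, and Grik4 at 1.92 [0.91 to 3.36]), with 0 lower, where 14.5% of 8997 genes were higher and 15.5% lower. The Grik4 ratio was 1.18 with at least 2 Nos1 UMIs, and 5.67 with at least 5, where E16.5 had 0 Grik4 UMIs. Excitatory markers fell in this class from 754 to 7.13 CPM over the same stages, and the part of this change in the stage ratios of Nos1 cells was not tested. Sst-high cells had 8 genes entered (without Grik4), with 2 higher (Neto1, and Neto2 at 1.13 [1.06 to 1.21]) and 0 lower, beside 16.5% and 13.7% of 9001 genes. Lhx6 Sst-negative cells also had 8 entered, with 1 higher (Neto1) and 0 lower, beside 18.0% and 15.2% of 9034 genes. The medians were 0.75, 0.79 and 0.63, against -0.05, -0.01 and -0.02 over all genes. Grik1 came close in Sst-high cells (0.98 [0.87 to 1.09]), and Elfn1 had 0.93 (0.85 to 1.02) there. The P1 library did not lie midway for every gene: Grik1, Grik2, Grik3, Grik4 and Grm5 were highest at P1 in each class. In Sst-high cells the P1 levels of Neto1, Neto2 and Elfn1 did lie between those of E16.5 and P5. From P1 to P5 Grik4 fell by more than 2-fold in Nos1 cells (-1.46 [-1.84 to -1.14]) and in Sst-high cells (-2.21 [-3.39 to -1.74]). Since P1 also kept the smallest share of its cells and was counted with another Cell Ranger version, stage cannot be told apart from these.

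The share of each subunit among the UMIs of its own family was compared between classes, gene by gene. Grik4 made up 4.07% (1.65 to 8.21%) of all Grik UMIs in Nos1 cells at E16.5, 16.4% (14.6 to 18.3%) at P1 and 9.74% (7.93 to 11.8%) at P5. In Sst-high cells its share was 0.856% (0.627 to 1.14%), 2.13% (1.71 to 2.63%) and 0.563% (0.322 to 0.913%). Nos1 cells thus held a larger part of their kainate receptor UMIs as Grik4 at P1 and P5, with intervals apart. The E16.5 share rests on 7 UMIs, of which 6 came from the 21 cells with 2 to 4 Nos1 UMIs and 0 from the 8 cells with 5 or more. The Grik1 share at P5 was 41.4% (39.6 to 43.2%) in Sst-high cells, 33.8% (30.8 to 36.9%) in Nos1 cells and 29.6% (26.6 to 32.8%) in Lhx6 Sst-negative cells, and the latter 2 overlapped. Grik3 at P5 had 10.7% (8.79 to 12.8%) in Nos1 cells, below 19.2% (17.7 to 20.7%) in Sst-high and 17.3% (14.8 to 20.0%) in Lhx6 Sst-negative cells. Neto1 formed 48.9% (47.7 to 50.1%) of the Neto UMIs of Sst-high cells at E16.5 and 55.5% (54.2 to 56.8%) at P5. In Nos1 cells its share was 24.5% (16.5 to 34.0%) at E16.5, where the class was mixed, and 57.6% (53.5 to 61.6%) at P5. Lhx6 Sst-negative cells had 43.2% (40.0 to 46.4%) and 53.6% (50.6 to 56.6%).

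The Nos1 class was then split by the number of Nos1 UMIs, a split chosen after the data were seen. Grm5 in P1 Nos1 cells was 545 (489 to 605) CPM with 1 Nos1 UMI (126 cells), 309.6 (248 to 382) with 2 to 4 (80 cells) and 92.5 (75.0 to 113) with 5 or more (228 cells). At P5 it was 488 (414 to 572), 178 (123 to 249) and 109 (92.7 to 127) CPM (81, 82 and 384 cells). Cells with a lone Nos1 UMI were thus close to the Sst-high class in Grm5 and far from the other Nos1 cells. Neto1 at P1 went from 331 (288 to 379) through 104 (69.9 to 149.91) to 76.3 (60.5 to 94.9) CPM, and Neto2 from 317 (275 to 364) through 173 (127 to 229) to 115 (95.7 to 138) CPM. Elfn1 at P1 had 180.5 (149 to 216), 112 (75.8 to 158) and 67.7 (52.9 to 85.4) CPM. Grik4 moved the other way, from 62.2 (44.5 to 84.8) to 184 (137 to 241) and 162 (139 to 188) CPM, the last 2 overlapping. Chodl, read alongside as an LRP marker that no class rule uses, rose from 74.7 (55.1 to 99.0) to 409 (371 to 449.5) CPM at P1 and from 54.3 (31.6 to 86.9) to 480.5 (446 to 517) CPM at P5. At E16.5 Chodl did not rise in this way, with 34.0 (17.0 to 60.8), 74.8 (38.7 to 131) and 18.1 (2.20 to 65.5) CPM in the 3 groups. How many of the cells with 1 Nos1 UMI hold it as free RNA was not tested. Deeper cells can reach more Nos1 UMIs, and the part of depth in this split was not tested either.

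For Neto1, Neto2 and Grm5, cells with 5 or more Nos1 UMIs were further from Sst-high cells than the whole Nos1 class. For Grm5 the log2 ratio over Sst-high cells was -2.58 at P1 and -2.004 at P5, in place of -1.04 and -1.32. Neto1 gave -2.49 at P1 in place of -1.40, and Neto2 gave -2.59 at P5 in place of -1.96. Grik2, by contrast, was at 0.22 at P1 and 0.22 at P5. At E16.5 this group is 8 cells, in which Neto1 and Grik4 both had 0 UMIs, allowing up to 33.4 CPM. The E16.5 cells with 2 to 4 Nos1 UMIs (21 cells) held 6.24 (0.158 to 34.8) CPM of Neto1, 119 (71.3 to 185) of Grm5 and 37.4 (13.7 to 81.5) of Grik4. When only the E16.5 Nos1 cells with no excitatory and at least 1 inhibitory marker UMI were used, the Neto1 ratio to Sst-high cells was -1.78 and that of Elfn1 -1.18, in place of -2.36 and -1.76. Grm5 gave -0.38 in these cells in place of -0.84, and Neto2 -0.86 in place of -0.82. Grik1 and Grik2 turned from -0.29 and -0.29 to 0.05 and 0.12, whereas Grik3 (-0.61) and Grik5 (-0.48) kept their sign.

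**Figure D2:**
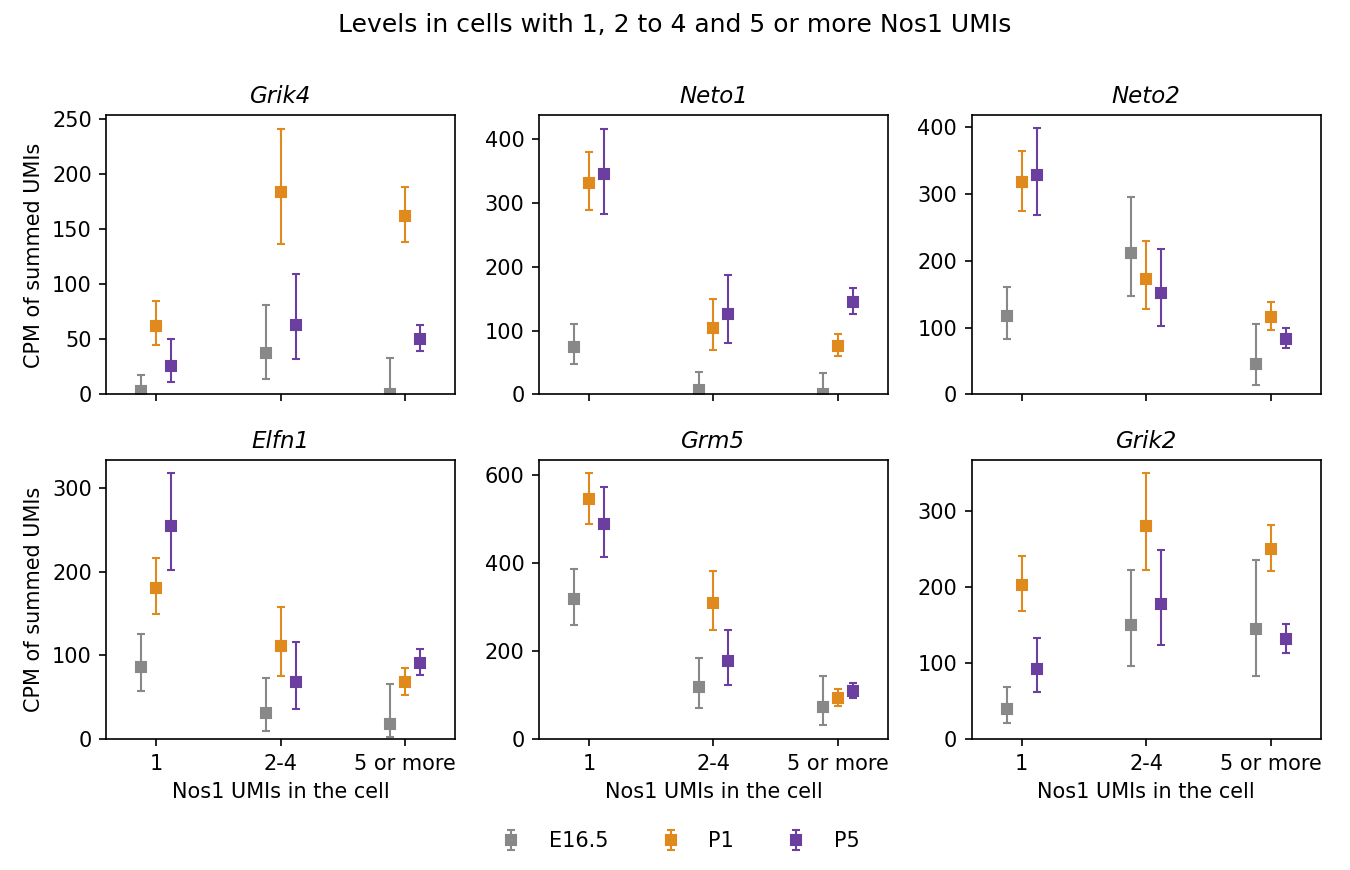
Levels of Grik4, Neto1, Neto2, Elfn1, Grm5 and Grik2, in CPM of summed UMIs on vertical axes from 0, in cells with 1, 2 to 4 and 5 or more Nos1 UMIs at E16.5, P1 and P5. Squares are the value of a group of cells in a library and bars are exact 95% Poisson intervals; the P1 and P5 squares of Neto1, Neto2, Elfn1 and Grm5 are highest at 1 Nos1 UMI, those of Grik4 are lowest there, and the E16.5 group with 5 or more UMIs holds 8 cells.

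Lhx6 cells without Nos1 were also split by their Sst UMIs, again after the data were seen. At P5 Neto2 was 256 (234 to 279.7) CPM with 0 Sst UMIs, 322 (302 to 344) with 1 to 4, 456 (425 to 489) with 5 to 9, 489 (455 to 526) with 10 to 19 and 569 (528 to 613) with 20 or more. Neto1 at P5 was 299.7 (276 to 325) CPM with 0 Sst UMIs, 593 (565 to 622) with 1 to 4, 668 (630.3 to 708) with 5 to 9, 617 (579 to 658) with 10 to 19 and 597 (555 to 642) with 20 or more. At P5 Neto1 thus rose mainly between 0 and 1 to 4 Sst UMIs, whereas Neto2 went on rising beyond. The step from 1 to 4 to 5 to 9 Sst UMIs was also a rise at the other stages. Neto1 went from 185 (173 to 199) to 254 (234 to 275) CPM at E16.5, and from 344 (319 to 369.9) to 417 (381 to 457) at P1. At E16.5 Neto1 was lower again with 20 or more Sst UMIs, at 211 (201 to 221) CPM. Elfn1 at P5 had 163 (146 to 182) CPM with 0 Sst UMIs, 409 (379 to 441) with 5 to 9 and 349.9 (318 to 384) with 20 or more. Grm5 at P5 ran the other way, from 691 (654 to 729) CPM with 0 Sst UMIs to 466 (441 to 492) with 1 to 4 and 427 (397 to 459) with 5 to 9. Grik5 showed no such slope, with 112 (97.2 to 128) CPM at 0 and 108 (90.5 to 128) at 20 or more Sst UMIs. Deeper cells reach more Sst UMIs, so depth and Sst level move together in this split and their parts were not tested. On either side of the Sst-high limit (any Lhx6, no Nos1), cells with 3 or 4 Sst UMIs at P5 had 612 (572 to 655) CPM of Neto1 and 335 (305 to 367) of Elfn1, and cells with 5 or 6 had 671 (621 to 724) and 408 (369.8 to 450.0).

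All kept cells without Nos1, in a class or not, were also grouped by at least 2 UMIs of 1 marker gene, and Nos1 cells by at least 1 UMI of Dach1 or Lypd1. These sets overlap, and those of at least 20 cells were used (11, 14 and 10 sets in the 3 libraries). The sets differ in depth, with a median of 15917.5 UMIs in the Rbp4 cells and 5816 in the Mef2c cells of E16.5 and 11002.5 in the Gpx3 cells of P1, and the part of depth in their order was not tested. Elfn1 was highest in cells with Nr2f2, a transcription factor of Martinotti cells, at 255 (241 to 270.0) CPM at E16.5, 452 (419 to 488) at P1 and 511 (480.2 to 543) at P5. Cells with Reln, the reelin gene, came second each time, with 444 (427 to 462) CPM at P5. Cells with Tac1, the substance P gene, had 81.0 (61.3 to 105), 41.6 (22.2 to 71.2) and 35.1 (20.0 to 56.9) CPM of Elfn1 at the 3 stages. Elfn1 in the Tac1 cells of P5 was the lowest of the 10 sets of that library. Neto1 in Tac1 cells was 79.5 (60.1 to 103), 60.9 (36.6 to 95.03) and 217 (176 to 264) CPM, against 324 (309.7 to 339), 562 (537 to 588) and 714 (692 to 737) in Reln cells. Grm5 had its highest value in the Tac1 set of every library (557 [503 to 615], 765 [671 to 869] and 607 [537 to 683] CPM) and its lowest in a Nos1 set with Dach1 or Lypd1, 109 (66.6 to 168) CPM for Dach1 and 112 (91.9 to 136) for Lypd1 at P5.

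Grik1 was highest in cells with Gpx3 at both postnatal stages, at 475 (388 to 576) CPM in the 20 such cells of P1 and 285 (250.0 to 324) in the 135 of P5, followed by cells with Rbp4, the retinol-binding protein gene, at 415 (374 to 458) and 258 (238 to 279.9). Pdyn (prodynorphin) cells had the lowest Grik1 of P5, 123 (106 to 143) CPM. Neto2 was highest in Rbp4 cells at E16.5 (396 [345 to 452] CPM, 36 cells) and at P5 (576 [545 to 607], 368 cells), and lowest at P5 in Nos1 cells with Lypd1 (59.9 [45.3 to 77.8]). Rbp4 cells did not stand out at every stage: Grik1 at E16.5 was 78.8 (57.3 to 106) CPM in them against 183 (136 to 242) in Cbln4 cells, and Neto2 at P1 was 428 (388 to 472) against 455 (422 to 490.4) in Nr2f2 cells. Grik3 at P5 was highest in Sfrp2 cells, 147 (102 to 206) CPM in 42 cells, then in Nr2f2 cells, 127 (111 to 143), and lowest in Tac1 cells, 30.7 (16.8 to 51.5). Grik4 at P1 was highest in Nos1 cells with Dach1, 217 (177 to 265) CPM in 101 cells, then in those with Lypd1, 139 (102 to 184) in 58 cells, with overlapping intervals. At P5 the 2 sets had 54.5 (26.1 to 100.2) and 41.7 (29.7 to 57.1) CPM of Grik4. In sets without Nos1 at P1, Grik4 reached 67.2 (30.7 to 128) CPM in Neurod6 cells and 65.3 (28.2 to 129) in Meis2 cells. At E16.5 it was highest in Cbln4 cells, 15.0 (4.08 to 38.3) CPM on 4 UMIs, and Nos1 cells with Dach1 had 5.69 (0.144 to 31.7) on 1 UMI. Grik5 ranged only from 87.2 to 113 CPM across the 10 sets of P5.

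**Figure D3:**
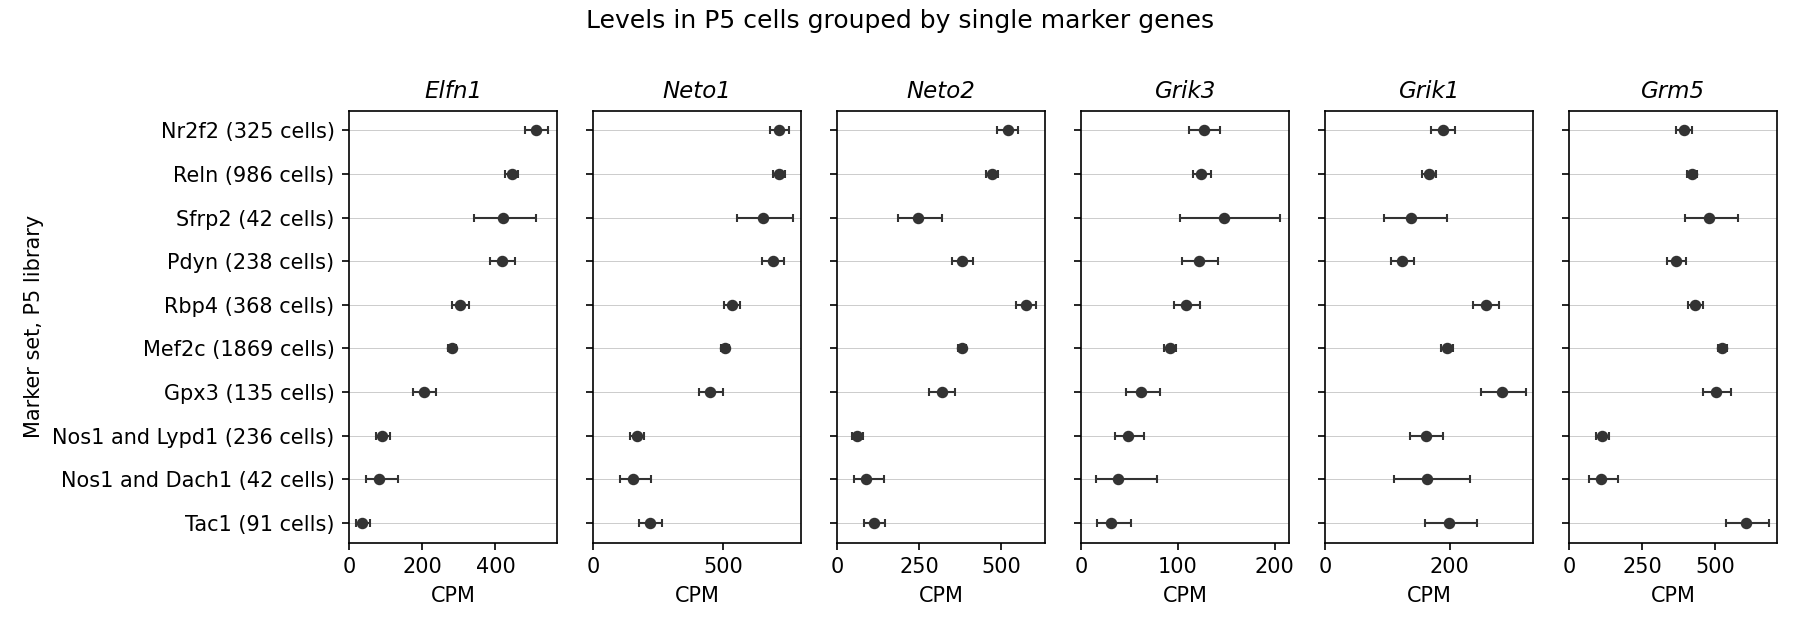
Levels of Elfn1, Neto1, Neto2, Grik3, Grik1 and Grm5 (CPM of summed UMIs, horizontal axes from 0) in the 10 overlapping sets of P5 cells defined by marker genes, with the number of cells of each set beside its name. Points are set values, bars are exact 95% Poisson intervals, and the sets are ordered by Elfn1, from 35.1 CPM in Tac1 cells to 511 CPM in Nr2f2 cells.

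Sst-high cells were split by the presence of an Elfn1 UMI to see which genes went with it, another step chosen after the data were seen. Cells with an Elfn1 UMI were deeper, with a median of 7343 UMIs against 5367 at E16.5, 6109.5 against 3034 at P1 and 5947 against 4100.0 at P5, and the part of depth in these ratios was not tested. Neto1 was higher in them, by a log2 ratio of 0.88 (0.76 to 1.01), 0.84 (0.67 to 1.02) and 0.60 (0.46 to 0.74). Reln was higher by 0.83 (0.68 to 0.99), 1.45 (1.25 to 1.66) and 1.18 (1.01 to 1.36). Nr2f2 was higher by 0.61 (0.48 to 0.76), 2.38 (2.00 to 2.85) and 2.36 (1.96 to 2.84). At P1 and P5 Nr2f2 had the highest ratio of the 12 genes read. Tac1 stood at -3.24 (-3.79 to -3.04), -2.56 (-3.41 to -2.02) and -4.29 (-5.55 to -3.81), the lowest of the 12 genes read in each library. Grik1 changed sign with stage, from 0.54 (0.38 to 0.71) at E16.5 to -0.19 (-0.35 to -0.03) at P1 and -0.64 (-0.82 to -0.46) at P5. Grik3 had 0.02 (-0.17 to 0.22), 0.43 (0.18 to 0.68) and 0.66 (0.33 to 1.03), and Grik5 had intervals that held 0 in all 3 libraries.

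Further genes of the same pathways were read from 3 lists. The kainate receptor partner list holds scaffold, editing and secreted partner genes (Pick1, Grip1, Grip2, Dlg1, Dlg2, Dlg3, Dlg4, Cask, Adar, Adarb1, C1ql2, C1ql3 and Nrxn3), the second list holds Elfn2 and the group II and III receptor genes Grm2, Grm3, Grm4, Grm6, Grm7 and Grm8, and the third follows Grm5 to effectors and scaffolds, of which single genes are given and no counts. Klhl17, also chosen, was not analysed here. In Nos1 over Sst-high cells at P5, 0 of 11 partner genes that entered were 2-fold higher and 1 lower (Grip1, 75.9 against 174 CPM, log2 -1.19). Over all genes 3.13% were higher and 4.03% lower. Of 4 genes on the second list 0 were higher and 1 lower: Grm3, which encodes the Gi-coupled mGluR3, had 15.3 against 99.3 CPM (log2 -2.62). From the third list Rgs4 (log2 -1.48), a regulator of G protein signalling, and Itpr1 (-1.24), the IP3 receptor gene, were lower. At P1 the counts were 0 and 0 of 11 and 0 and 1 of 4 (Grm3, -1.62), beside 2.23% and 2.06% of all genes. Itpr1 was at 1.28 and Rgs4 at -1.18 at P1, so Itpr1 had the opposite sign at P1 and P5. At E16.5, where the Nos1 class is small and mixed, they were 1 and 1 of 11 (Dlg1 at 1.13, Grip2 at -1.07) and 0 and 0 of 3, beside 3.73% and 2.11% of all genes, while Itpr1 was at 3.44, Trpc5 at 2.94 and Homer3 at 1.30.

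In Lhx6 Sst-negative over Sst-high cells, Grm7, the gene of the presynaptic receptor mGluR7, was lower at E16.5 (log2 -2.04) and P1 (-1.29). No partner gene of 11 passed 2-fold in either direction at any stage, and on the second list 1, 1 and 0 of 3, 4 and 4 genes were lower and 0 higher, where 2.41%, 4.42% and 2.03% of all genes were lower and 0.860%, 1.36% and 1.80% higher. Homer2, a receptor scaffold gene, was lower at E16.5 (-2.20) and the cation channel gene Trpc5 at P1 (-3.02).

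The same lists were read from E16.5 to P5. Dlg2, the PSD-93 scaffold gene, was higher in Nos1 (1.66), Sst-high (1.81) and Lhx6 Sst-negative cells (1.94), and Adarb1, which encodes an RNA-editing enzyme, in the latter 2 (2.09 and 1.96). The partner list had 3, 3 and 2 of 11 genes higher and 0 lower in the 3 classes, with Dlg3 (1.51) and Adar (1.33) making up the count in Nos1 cells and Adar (1.18) that in Sst-high cells. Of all genes 14.5%, 16.5% and 18.0% were higher and 15.5%, 13.7% and 15.2% lower in the same comparisons. On the second list 2, 4 and 4 of 4 genes were higher and 0 lower. Grm4 was among them in each class (2.52, 1.74 and 1.63), as was Grm7 (1.01, 1.47 and 2.74), joined by Grm3 (1.64 and 1.46) and Elfn2 (1.36 and 1.44) outside Nos1 cells. In Sst-high and Lhx6 Sst-negative cells Trpc5 (4.204 and 4.76) and Itpr1 (3.13 and 4.34) were higher. In Nos1 cells Ncdn (1.77) and Trpc5 (1.53) were higher, and Itpr1 (-1.54) and Gna11 (-1.13), a Gq family gene, were lower there, in the class whose E16.5 cells were mixed. Not every gene of the third list past 2-fold is named for any class here. Names beyond the first 2 per list, direction and comparison were chosen after their values were seen.

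For each gene, the genes with the most similar pattern over the 9 class-by-library values were found by Pearson correlation of log2(CPM + 1) among 7215 genes with a mean of at least 20 CPM. The 9 points share 3 libraries, the class rules and, in part, cells, so the correlations are descriptions. Grik4 was most like Nucb2 (r = 0.98) and Adcy5 (r = 0.96), both highest in P1 Nos1 cells. Nucb2 encodes a calcium-binding protein and Adcy5 an adenylyl cyclase. Neto1 was closest to Cdh9 (r = 0.97), a cadherin gene, and AF529169 (r = 0.96). Reln came first for Neto2 (r = 0.96), followed by Micu3 (r = 0.96), and second for Elfn1 (r = 0.96), after Wasf1 (r = 0.97), an actin regulator gene. Grm5 was most like Zfp180 (r = 0.95) and Golim4 (r = 0.95). Grik1 had Dnajc10 (r = 0.98) and Tcaf1 (r = 0.96), Grik2 had Usp24 (r = 0.98) and Bc1 (r = 0.98), Grik3 had Slitrk4 (r = 0.95) and Adgrl1 (r = 0.94), and Grik5 had Ipo11 (r = 0.99) and Zdhhc9 (r = 0.98). None of the 9 genes overlaps another gene of the files on either strand in GENCODE M21, although Nos1, on which a class rests, has an antisense gene (Gm26995).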

How the data were processed

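Alignment by the authors used GRCm38 and Cell Ranger (version 3.1.0 at E16.5 and P5, 3.0.2 at P1, per the file headers) and deposited UMI counts per gene and cell without normalization. Their processing notes also name STAR and Seurat. Here UMIs were summed per class and library and scaled to CPM. Log2 ratios used a pseudocount of 1 CPM. Python 3.11.15 was used with numpy 2.4.6, scipy 1.17.1, pandas 2.3.3 and matplotlib 3.10.9, and gene positions came from GENCODE M21. The steps were tested on simulated data. No doublet caller was run; an alternative left out the 5% of cells with most UMIs. Members and lists were chosen with earlier results of these data known. Some items of the lists are not reported here. Named genes are the 9, Sst, Nos1 and Lhx6, the most abundant marker of each list, up to 2 pathway genes per list, direction and comparison with the largest log2 ratio past 2-fold, further pathway and marker genes chosen after their values were seen, and the 2 genes most alike each member. In total 15 alternatives of the comparisons were planned, covering cell filters, scaling, class limits, pseudocount, fold and low-value filter, and 2 were added after the data were seen, with the splits by Nos1, Sst and Elfn1 UMIs.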

Additional observations from a re-analysis of the deposited data

Results flagged for a closer look

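Grm5 differed in direction between classes from E16.5 to P5. Its log2 ratio was 0.17 in Sst-high cells and 0.51 in Lhx6 Sst-negative cells, both above 0, and -0.31 in Nos1 cells. None reached 2-fold, and the difference between the classes was not tested. In Nos1 cells with no excitatory and at least 1 inhibitory marker UMI the ratio was -0.76. With 5 or more Nos1 UMIs it was 0.58, on 8 Grm5 UMIs at E16.5 that were all in 1 of 8 cells.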

How the results depend on the processing

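Of the counts of genes past 2-fold recomputed under the alternatives, 135 stayed within 1.5 times and 18 moved; of the log2 ratios of the 9 genes, 1271 stayed within the half-width of their interval (0.5 of its width) and 106 moved. Of the CPM levels 943 stayed within their interval and 191 moved, 56 of them without mitochondrial, ribosomal and Y genes, which leaves a smaller total, and 35 with the mean of single-cell CPM. No ratio counted as past 2-fold changed sign. Grik4 in Nos1 over Sst-high cells at E16.5 missed the low-value filter, and its -2.07 with at least 5 Nos1 UMIs comes from 0 UMIs and the pseudocount. With a fold of 1.5 more genes pass by construction: in Nos1 over Sst-high cells at E16.5 the count went from 2 to 5, in Lhx6 Sst-negative over Sst-high cells to 4, 5 and 5 at E16.5, P1 and P5, and in the P5 to E16.5 comparison to 5 in Nos1, 6 in Sst-high and 4 in Lhx6 Sst-negative cells. With the mean of single-cell CPM, Lhx6 Sst-negative over Sst-high gave 0 at E16.5 and 4 at P5, and P5 over E16.5 in Sst-high cells gave 4. At least 2 Nos1 UMIs gave 4 both for Nos1 over Sst-high at E16.5 and for the change from E16.5 to P5 in Nos1 cells, and at least 5, added after the data were seen, gave 5 and 4, on 8 E16.5 cells. At least 2 Lhx6 UMIs gave 0 for Lhx6 Sst-negative over Sst-high at E16.5, and an Lhx6 UMI in Sst-high cells gave 1 at P1. P5 over E16.5 in Lhx6 Sst-negative cells gave 3 with over 1000 genes and under 5% mitochondrial UMIs and 2 with at least 2000 UMIs. Beyond the fold of 1.5, the cause was not tested. Thinning lowered 79 of 81 shares of cells beyond their interval. Depth limits Grik4, with 7 UMIs in E16.5 Nos1 cells and 4 and 5 in E16.5 and P5 Lhx6 Sst-negative cells, and every E16.5 Nos1 value, from 67 cells.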
